A study of Homo sapiens with 7 samples.

Results

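Clustered SP1 peaks are ChIP-seq peaks of the transcription factor SP1 that sit in crowded stretches of the genome of HCT116, an established human colon adenocarcinoma cell line. A peak was taken as clustered when 5 or more other peaks of the deposited list had their midpoints within 25 kb of its own, when it was under 2000 bp wide and when it was not on chromosome 19. The rule found 5142 of the 27015 peaks. It uses the positions and widths of the peaks only. Their spacing, width and score come from the same ChIP-seq sample and are given as descriptions, while the transposon insertions are a separate measurement. The 5142 peaks make up 21.7% of the 23703 narrow peaks off chromosome 19. The other 18561 narrow peaks off chromosome 19 serve for comparison, among them 7366 isolated peaks with no other midpoint within 25 kb.

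SP1 is a zinc finger protein that binds GC-rich sequences, called GC boxes, in the promoters of many genes, and several such boxes often lie side by side. The piggyBac transposase pastes a transposon into TTAA sites, and a transposase joined to a DNA-binding protein tends to leave its transposons near the sites of that protein. Such insertions are known as calling cards. The wild-type transposase has preferences of its own, which makes it the background against which the fusion is read.

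Insertions were mapped in HCT116 cells that carried the transposase fused to SP1 (SP1_PB, 2 libraries) or the wild-type transposase (WT_PB, 3 libraries), and the peaks came from 1 SP1 ChIP-seq sample of the same line. Insertion libraries were made by inverse PCR on DNA of cells that had survived the drug G418, which selects for a transposon in the genome. The sources used here do not give the promoter that drove each transposase. The SP1_PB libraries held 18856 and 14467 distinct insertion positions, against 57419 to 67423 in the WT_PB libraries, so values are given as shares of a library or per 10000 of its insertions. Whether the replicates are separate cultures is not stated in the labels, so their spread may be technical, and a p-value over libraries speaks of these libraries alone.

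The clustered peaks fell into 603 clusters. A cluster held the clustered peaks and all peaks within 25 kb of them, 7284 peaks in all, of which 450 were 2000 bp or wider. Clusters had between 6 and 83 peaks with a median of 9, spanned 12.6 to 392 kb with a median of 51.4 kb, and together covered 42.1 Mb of the genome build hg18. Neighbouring midpoints of a cluster were a median of 4.44 kb apart. The largest, on chromosome 9 from 138953861 to 139335160, held 83 peaks, 75 of them clustered peaks by the rule. Clustered peaks occurred on 22 chromosomes, with 711 on chromosome 17, 620 on chromosome 16, 521 on chromosome 11 and 495 on chromosome 1. On chromosome 16 they made up 39.2% of the narrow peaks, against 6.82% on chromosome 6. Of the clustered peaks 52.9% lay within 5 Mb of the first or last mapped position of their chromosome, against 18.0% of the other narrow peaks. Genes at these places are not named, because no annotation of hg18 was used here.

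By the authors' peak score, clustered peaks were no stronger than the rest. Their median score was 366, against 384 for the other narrow peaks and 417 for isolated peaks, and their median width was 830.5 bp, against 799 and 840 bp. Of the clustered peaks 19.5% fell in the highest score quartile of the whole peak list, against 25.4% of the others. The 1388 peaks just inside the rule, with exactly 5 neighbours, had 0.292 SP1_PB and 0.205 WT_PB insertions per peak within 1 kb. The 1682 narrow peaks just outside it, with 4 neighbours, had 0.315 and 0.243.

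Insertions of the SP1 fusion hit clustered peaks at many times the rate of wild-type transposase insertions. Inside clustered peaks lay 491 (2.60%) and 378 (2.61%) of the insertions of the SP1_PB libraries, against 95 (0.161%), 106 (0.157%) and 76 (0.132%) of those of the WT_PB libraries. The groups did not overlap: both SP1_PB shares exceeded every WT_PB share by more than 16-fold. The mean shares were 2.61% ± 0.00629 in SP1_PB (SD, n = 2) and 0.150% ± 0.0157 in WT_PB (SD, n = 3). The ratio of the pooled shares was 17.3 (95% interval 15.1 to 19.8), and single SP1_PB libraries stood 16.1 to 19.7 times above single WT_PB libraries.

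Within 1 kb of a clustered peak, the peak included, lay 869 (4.61%) and 657 (4.54%) of the SP1_PB insertions, against 304 (0.517%), 349 (0.518%) and 260 (0.453%) of the WT_PB insertions. Here the ratio of shares was 9.21 (8.50 to 9.99). In both measures Fisher's exact test on pooled insertions gave a p below 1e-300, a value that takes every insertion as an independent event and reflects counting error alone. The two-sided exact permutation test over the 5 libraries has 10 splits and cannot go under p = 0.1. That was its p for both measures, and also for the 5 later comparisons of shares that passed Fisher's exact test over all libraries, at other narrow peaks, isolated peaks and gaps.

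This gap was wider at clustered than at other narrow peaks. Inside the other narrow peaks SP1_PB had 9.69 times (9.27 to 10.1) the share of WT_PB, and within 1 kb of them 4.33 times (4.23 to 4.44). Of the insertions inside narrow peaks 15.2% and 15.0% were in clustered peaks in the SP1_PB libraries, against 9.06%, 9.72% and 8.26% in the WT_PB libraries. Both SP1_PB values stood above all WT_PB values. The odds ratio was 1.78 (1.55 to 2.06, Fisher's exact p = 3.11e-16 after adjustment over 8 comparisons). Within 1 kb it was 2.13 (1.95 to 2.32, Fisher's exact, adjusted p = 7.67e-68), and against isolated peaks alone it was 2.43 (2.22 to 2.66, Fisher's exact, adjusted p = 1.26e-85). These values within 1 kb take peaks and flanks together. Clustered peaks covered 4.79 Mb with 7.92 Mb of flanks, and other narrow peaks 16.6 Mb with 34.8 Mb. In the flanks alone the ratio of shares was 5.69 (5.11 to 6.35) at clustered and 2.77 (2.68 to 2.86) at other narrow peaks. The part of this mix in the odds ratios within 1 kb was not tested. Score, width and chromosome were held level in turn. The odds ratio within 1 kb was 2.20 over score quartiles, 2.16 over width quartiles and 2.07 over chromosomes. Among peaks more than 5 Mb from the chromosome ends, an alternative added after the data had been seen, it was 1.95.

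Both transposases inserted less densely in clustered than in other narrow peaks, and the wild-type transposase more so. Inside clustered peaks the SP1_PB libraries had 54.4 and 54.5 insertions per Mb of peak and per 10000 insertions of the library, against 3.37, 3.28 and 2.76 in the WT_PB libraries. Inside the other narrow peaks these densities were 87.6 and 89.1 in SP1_PB and 9.74, 8.78 and 8.84 in WT_PB. The density inside clustered peaks was thus 0.620 and 0.612 times that inside other narrow peaks in the SP1_PB libraries, against 0.346, 0.374 and 0.313 times in the WT_PB libraries. In the flanks, which reach up to 1 kb from the peak edge, it was 0.600 times for the mean of SP1_PB and 0.292 times for the mean of WT_PB. The higher ratio at clustered peaks came with fewer SP1_PB insertions per length of peak, and with fewer still of WT_PB. TTAA sites were not counted, since the sequence of hg18 was not used here, and their part in these densities was not tested.

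**Figure D1:**
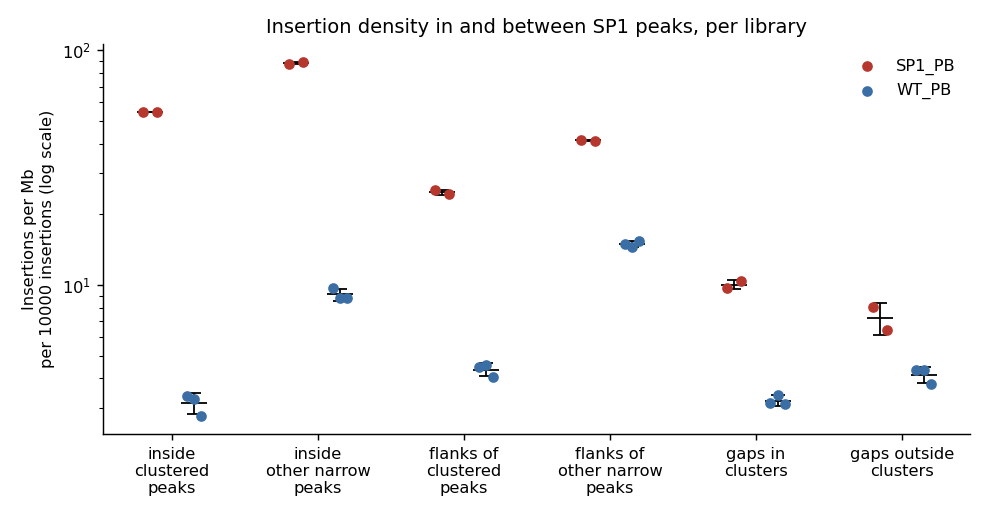
Insertions per Mb of region and per 10000 insertions of the library (log axis) inside narrow peaks, in their flanks up to 1 kb and in the gaps between neighbouring peaks, for clustered peaks or clusters and for the rest. Points are libraries, lines are means and bars are SD; SP1_PB lies at 54.4 and 54.5 inside clustered peaks, against 2.76 to 3.37 in WT_PB.

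The ratio of SP1_PB to WT_PB was higher at each step in the number of nearby peaks, also among the clustered peaks themselves. Within 1 kb of isolated peaks it was 3.80 (3.67 to 3.93). It was 4.70 at peaks with 1 or 2 neighbours and 6.39 at those with 3 or 4. Among clustered peaks it was 7.57 (6.76 to 8.48) with 5 or 6 neighbours, 10.8 (9.40 to 12.4) with 7 to 9 and 13.3 (10.4 to 17.0) with 10 to 16. Inside the peak the ratio ran from 9.02 at isolated peaks to 27.1 (17.6 to 41.7) at the 787 peaks with 10 or more neighbours, where 123 SP1_PB stood against 25 WT_PB insertions. The trend over these groups of peaks was not tested.

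Among clustered peaks, the steps differed more in WT_PB than in SP1_PB insertions. Per 100 peaks and 10000 insertions, the SP1_PB libraries had 8.71 and 8.58 insertions within 1 kb at peaks with 5 or 6 neighbours, and 7.95 and 8.43 at peaks with 10 or more. The WT_PB libraries had 1.17, 1.18 and 1.07 at peaks with 5 or 6 neighbours, and 0.475, 0.773 and 0.575 at peaks with 10 or more. In SP1_PB the values of the most and the least crowded clustered peaks thus lay close together, while in WT_PB every library had less at the most crowded ones. Crowded peaks share their flanks, since each insertion went to its nearest peak, and the part of this in the values was not tested. Inside the peak, 2449 peaks with 5 or 6 neighbours held 405 SP1_PB and 163 WT_PB insertions. The 787 with 10 or more held 123 and 25.

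**Figure D2:**
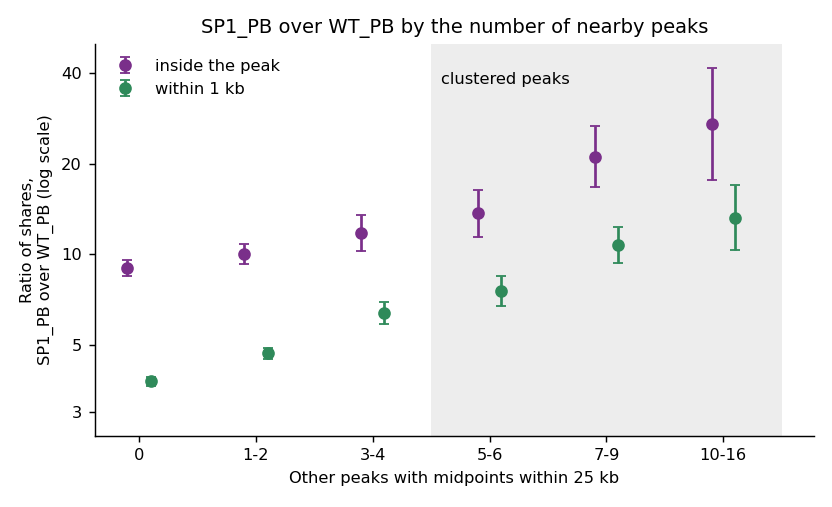
Ratio of the SP1_PB share to the WT_PB share of insertions (log axis) at narrow peaks off chromosome 19, by the number of other peaks with midpoints within 25 kb, inside the peak and within 1 kb. Bars are 95% intervals for counting error, and the shaded groups are clustered peaks; within 1 kb the ratio lies at 3.80 for isolated peaks and at 13.3 for peaks with 10 to 16 neighbours.

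Stronger clustered peaks carried more insertions of both kinds. In the lowest score quartile of the whole list, 1405 clustered peaks had 248 SP1_PB and 171 WT_PB insertions within 1 kb, a ratio of shares of 7.99 (6.58 to 9.71). In the highest quartile, 1003 clustered peaks had 647 and 310, a ratio of 11.5 (10.1 to 13.2). The quartiles between them stood at 6.98 and 9.06, so the order was not even. At other narrow peaks the same end quartiles had ratios of 3.22 (2.99 to 3.47) and 5.34 (5.14 to 5.54) at the lowest and highest scores. In each of the 4 quartiles the ratio was higher at clustered peaks. By width, clustered peaks of the widest quartile had a ratio of 12.4 (10.8 to 14.4), against 8.24 (6.76 to 10.0) for the narrowest. The quartiles between them stood at 6.92 and 8.29, so this order was not even either.

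Most clustered peaks carried no insertion at all. Of the 5142, 4031 (78.4%) had none within 1 kb in any of the 5 libraries, against 58.7% of the other narrow peaks and 47.7% of isolated peaks. Part of this follows from giving each insertion to its nearest peak only, since crowded peaks share their flanks: the flanks of the 5142 clustered peaks covered 7.92 Mb and those of the 7366 isolated peaks 14.7 Mb. With every library reduced to 14467 insertions, 8.95% and 8.19% of clustered peaks had an SP1_PB insertion within 1 kb, against 1.38%, 1.41% and 1.21% with a WT_PB insertion. The 2 groups were well apart, with means of 8.57% ± 0.543 in SP1_PB (SD, n = 2) and 1.34% ± 0.111 in WT_PB (SD, n = 3), a ratio of 6.42 (exact permutation p = 0.1). At other narrow peaks the same shares were 14.3% ± 0.543 and 4.79% ± 0.126, a ratio of 2.98. In the full libraries 729 clustered peaks had an SP1_PB insertion, 404 of them a single one, 245 had insertions in both SP1_PB libraries and 64 had 5 or more. The most at 1 clustered peak was 13 SP1_PB and 8 WT_PB insertions. A count of 0 at a peak allows up to 3 insertions by counting error, so peaks without one are not shown to be avoided.

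Single peaks were tested with Fisher's exact test over all peaks of the list that had at least 5 insertions within 1 kb, with Benjamini-Hochberg adjustment over all 1797 of them. Of these, 54.1% were higher and 0% lower in SP1_PB. Only 121 clustered peaks (2.35%) reached 5 insertions, and 88 of them were higher in SP1_PB, in 76 clusters on 18 chromosomes. None of the 121 was lower, also at an unadjusted Fisher's exact p under 0.05. None could have been: no clustered peak had more than 8 WT_PB insertions, too few to come out lower even without any of SP1_PB. A peak with few WT_PB insertions reaches 5 only through SP1_PB, so these 88 describe where insertions piled up and are no further support. Of the 88, 25 had no WT_PB insertion. With positions within 3 bp merged, 53 of 80 tested clustered peaks were higher, against 47.9% of all tested peaks. The number was 15 of 33 (36.8% of all tested peaks) without positions found in more than 1 library. With 1 insertion per 1 kb it was 4 of 18 (7.79% of all). It was 26 of 51 (30.4% of all) without SP1_PB replicate 1 and 35 of 58 (35.7% of all) without SP1_PB replicate 2.

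The 11 clustered peaks with the smallest p, of which the last 2 tied, were picked by the counts, so their ratios are likely too high. The first of them lies on chromosome 12 from 121885510 to 121886810. It had 8 and 5 insertions within 1 kb in the SP1_PB libraries, against 1, 0 and 0 in the WT_PB libraries, a ratio of 71.7 (9.37 to 548, Fisher's exact, adjusted p = 4.00e-08). Of its 13 SP1_PB insertions 4 lay inside the peak, and 10 remained with positions within 3 bp merged. This peak had a middling score of 469 and 8 neighbours.

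The next, on chromosome 4 from 1551805 to 1553220, was among the strongest of all with a score of 2462. It had 5 and 5 SP1_PB insertions and none of WT_PB. The ratio is 18.4 if 3 insertions over all WT_PB libraries are taken as the floor. This leaves out the counting error of the SP1_PB insertions and is no lower limit. Of the 10 SP1_PB insertions 9 lay inside the peak. On chromosome 2 from 220070572 to 220072194 and on chromosome 17 from 7288984 to 7290128, the SP1_PB libraries had 5 and 4 insertions at each peak, and the WT_PB libraries none. With that floor the ratio is 16.5 at both, with the same limit.

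The pattern within a single peak differed between them. At the peak on chromosome 3 from 50247968 to 50249119, all 10 SP1_PB insertions lay inside the peak, 5 per library, against 1 WT_PB insertion. So they did at the peak on chromosome 11 from 71611719 to 71613052, again with 5 per library against 1. At the weak peak on chromosome 17 from 35149127 to 35149700, with a score of 220, only 1 of 8 lay inside. The other 4 peaks had 8 to 10 SP1_PB and 0 to 2 WT_PB insertions. At each of the 11 peaks, between 2 and 4 positions occurred in both SP1_PB libraries, and the pooled counts take such positions as separate insertions. All 11 ratios stayed above 1 in 11 alternatives each, of which the minimums of 3 and 10 insertions leave the ratio unchanged. Since the peaks were picked by these counts, that is no further support. Only the call of the peak on chromosome 12 held in all 11.

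Windows of 50 kb with at least 5 insertions were tested too, and there as well a window with few WT_PB insertions enters only through SP1_PB. Of 15678 windows of the whole genome tested in the same way, 6.88% were higher and 0.166% lower in SP1_PB. Of 634 tested windows with a clustered peak, 238 (37.5%) were higher and none was lower, also at an unadjusted p under 0.05. Most windows of the genome hold no clustered peak, so the 2 percentages differ in more than clustering, and the count is a description. Without positions found in more than 1 library 130 of 536 tested windows with a clustered peak were higher, 129 of them among the 238. With 1 insertion per 1 kb 87 of 570 were, all among the 238. The number was 92 of 489 without SP1_PB replicate 1 and 121 of 529 without SP1_PB replicate 2. The share over all windows is not given for these alternatives, so a fall in calls across the genome cannot be told apart here.

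The stretches between the peaks of a cluster also had a larger share of SP1_PB than of WT_PB insertions. A gap was counted more than 1 kb from every peak. Gaps of clusters covered 24.2 Mb and held 443 (2.35%) and 363 (2.51%) of the SP1_PB insertions, against 446 (0.758%), 556 (0.825%) and 432 (0.752%) of the WT_PB insertions. The groups did not overlap. The ratio of shares was 3.10 (2.84 to 3.37, Fisher's exact, adjusted p = 1.39e-127), well below that inside the peaks. It depended on how tightly peaks had to be packed, with 6.09 when the neighbours were counted within 10 kb and 2.34 within 50 kb.

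Gaps outside clusters, between other neighbouring peaks with midpoints at most 25 kb apart, had a ratio of 1.77 (1.66 to 1.88). Of the insertions in either kind of gap, 37.3% and 44.3% lay in gaps of clusters in the SP1_PB libraries, against 26.2%, 28.0% and 28.8% in the WT_PB libraries. The odds ratio was 1.75 (1.57 to 1.95, Fisher's exact, adjusted p = 6.91e-24), and 1.64 with gap length held level. The SP1_PB libraries differed from each other here by more than the WT_PB libraries did. Unlike inside the peaks, SP1_PB was denser in gaps of clusters than in other gaps, with 9.71 and 10.4 against 8.07 and 6.45 insertions per Mb and 10000 insertions. In WT_PB it was the reverse, with 3.13, 3.41 and 3.11 against 4.35, 4.33 and 3.79.

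Insertions were then compared within ranges of distance from the nearest peak edge. Right next to the edge, at 1 to 250 bp, the ratio of SP1_PB to WT_PB was 6.29 (5.48 to 7.22) between peaks of a cluster and 3.75 (3.58 to 3.94) between all other neighbouring peaks off chromosome 19. At 1001 to 2000 bp it was 3.75 (3.22 to 4.38) in clusters and 1.59 (1.49 to 1.71) elsewhere. At 5001 to 12500 bp, where a gap of a cluster is farthest from any peak, it was still 2.19 (1.80 to 2.67), against 0.937 (0.899 to 0.976) elsewhere. In each of the 6 distance ranges the SP1_PB libraries lay above all WT_PB libraries in the ratio of cluster to other insertions. The odds ratio ran from 1.67 at 1 to 250 bp to 2.63 at 2001 to 5000 bp, with adjusted p by Fisher's exact test from 6.40e-12 to 4.07e-41. These 6 ranges were added after seeing the data. Neighbouring midpoints of a cluster are at most 25 kb apart, while the other intervals here had any length. At 5001 to 12500 bp they covered 188 Mb, against 5.49 Mb in clusters. Interval length was thus not held level, nor was distance inside the wide ranges, and their part in these values was not tested.

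The transposases also differed in how density changed with distance, which was not tested. Between peaks of a cluster, WT_PB density was 6.73 ± 0.352 at 1 to 250 bp and 3.44 ± 0.0835 at 5001 to 12500 bp (SD, n = 3). Over the same ranges SP1_PB density was 42.5 ± 0.658 and 7.47 ± 0.773 (SD, n = 2). Elsewhere WT_PB density differed more, with 24.3 ± 1.92 at the edge and 4.26 ± 0.211 at the far range. Clusters and other stretches thus differed less in WT_PB density at the far range than next to a peak.

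**Figure D3:**
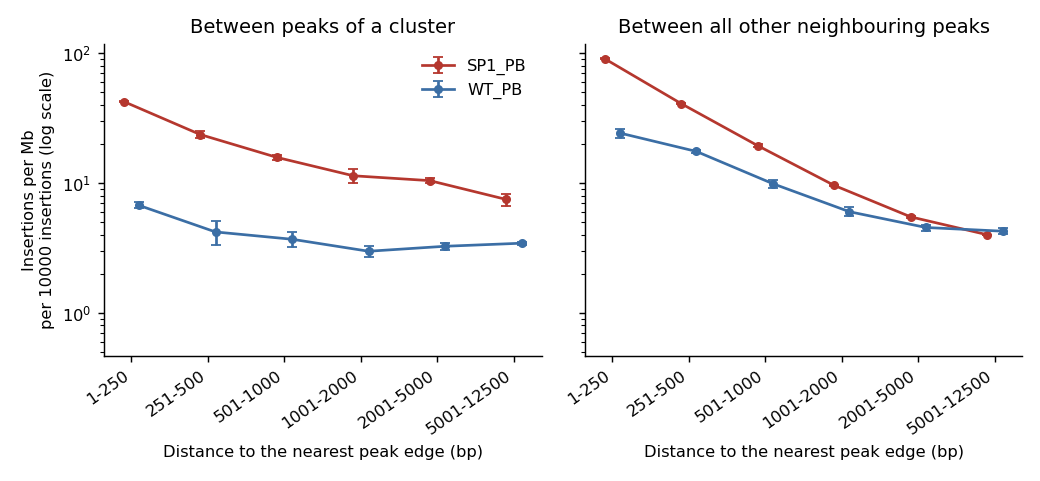
Insertions per Mb and per 10000 insertions of the library (log axis) by distance to the nearest peak edge, between peaks of a cluster (left) and between all other neighbouring peaks off chromosome 19 (right). Points are means and bars SD over 2 SP1_PB and 3 WT_PB libraries; at 5001 to 12500 bp SP1_PB lies above WT_PB in clusters, at 7.47 against 3.44, and slightly below it elsewhere, at 4.0 against 4.26.

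Whole clusters, from the first to the last peak, held 9.51% and 9.61% of the SP1_PB insertions, against 1.56%, 1.62% and 1.45% of the WT_PB insertions. Of the SP1_PB insertions in clusters 47.4% and 45.8% lay inside a peak and 24.7% and 26.1% in gaps. Of those of WT_PB 19.2%, 16.5% and 17.5% lay inside and 48.7%, 50.8% and 52.0% in gaps. The ratio of shares was 5.16 (4.68 to 5.69) in the 290 clusters with 6 to 8 peaks, 6.18 (5.63 to 6.79) in the 181 with 9 to 14 and 6.86 (6.36 to 7.39) in the 132 with 15 or more.

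Insertions were spread over many clusters. No SP1_PB insertion lay in 122 of the 603 clusters, no WT_PB insertion in 75 and none of either in 32. Both SP1_PB libraries had insertions in 345 clusters. In 339 clusters both SP1_PB libraries had a larger share than pooled WT_PB, and in 94 both had a smaller one. Library size largely sets these counts. The median cluster had 3 WT_PB insertions, and 1 insertion in an SP1_PB library is already a larger share than that. The 339 are thus nearly all of the 345, and a cluster with WT_PB but no SP1_PB insertions counts among the 94. Both counts mostly tell which clusters were hit. The 6 clusters with the most SP1_PB insertions held 6.44% of all 3183 in clusters. More than 1 peak of a cluster was often hit: 164 clusters had SP1_PB insertions at 3 or more peaks and 164 at only 1, and the most was 13 peaks of 1 cluster.

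**Figure D4:**
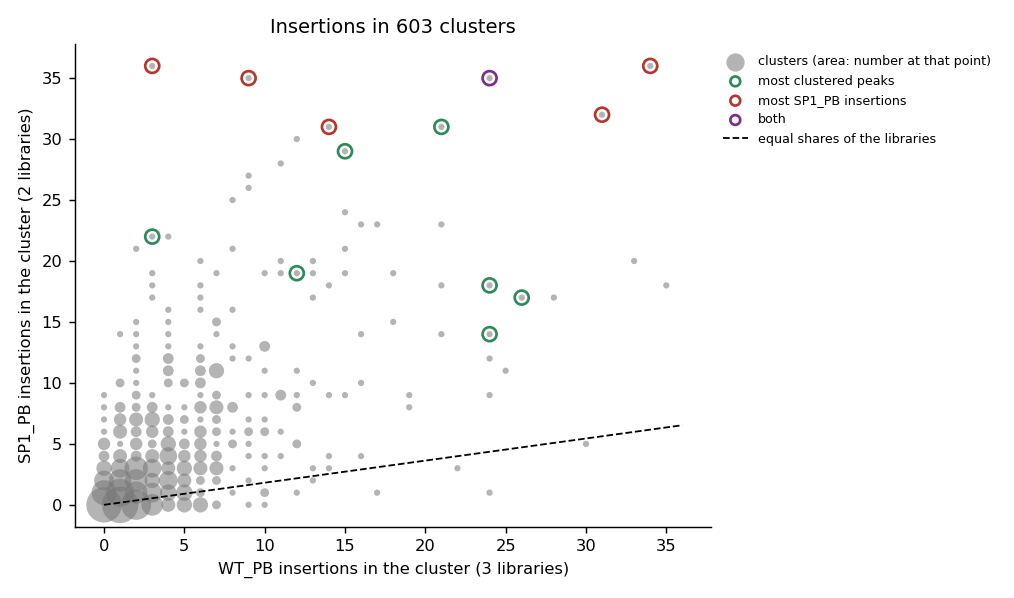
SP1_PB insertions (2 libraries pooled) against WT_PB insertions (3 libraries pooled) from the first to the last peak of each of the 603 clusters, with the area of a point giving the number of clusters there. Rings mark the clusters with the most clustered peaks and those with the most SP1_PB insertions. The dashed line marks equal shares of the libraries. Above it lie 470 clusters, and where WT_PB insertions are few, 1 of SP1_PB is enough for that.

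The strongest peak of a cluster was not clearly favoured by the fusion beyond what the wild-type transposase showed. Strongest peaks made up 8.28% of the peaks of clusters and 9.26% of the length of peaks and flanks. Of the insertions within 1 kb of a peak of a cluster, 18.7% and 17.3% in the SP1_PB libraries lay nearest to the strongest peak, against 14.7%, 15.2% and 17.7% in the WT_PB libraries. The groups overlapped, and the odds ratio was 1.18 (0.995 to 1.40, Fisher's exact, adjusted p = 0.0595, exact permutation p = 0.3). In 5 alternatives Fisher's exact test was passed and the groups did not overlap. Examples are 1.47 for clusters built on 7 or more neighbours and 1.32 with at least 2 reads per position, where the exact permutation p was 0.2 each. With 4 or more neighbours (1.16) only Fisher's exact test was passed (adjusted p = 0.0495), and the groups overlapped.

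The 8 clusters with the most clustered peaks varied widely in their insertions. In the largest, on chromosome 9, the SP1_PB libraries had 18 and 11 insertions, against 5, 7 and 3 in the WT_PB libraries, a ratio of 10.7 (5.71 to 19.9). Of its 29 SP1_PB insertions 18 were in gaps and 3 inside a peak. Several of the 18 were positions 1 bp apart or the same position in both SP1_PB libraries. Most of its WT_PB insertions lay in gaps too. On chromosome 16 from 1140678 to 1532662, where 62 clustered peaks lie, the SP1_PB libraries had 11 and 7, against 7, 10 and 7, a ratio of 4.13 (2.24 to 7.62). Only 1 SP1_PB insertion was inside a peak there.

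A neighbouring cluster, on chromosome 16 from 1893707 to 2275019 with 61 clustered peaks, had 23 and 12 SP1_PB insertions, against 13, 6 and 5, a ratio of 8.04 (4.78 to 13.5). The cluster near the other end of that chromosome, from 87256122 to 87536274 with 43, stood out. Its SP1_PB libraries had 12 and 10 insertions, against 0, 3 and 0, a ratio of 40.4 (12.1 to 135), and 13 of the 22 were inside a peak. Without WT_PB replicate 2 no WT_PB insertion was left in it. With at least 2 reads per position, and 0.5 insertions added to each group, its ratio was 162, against 35.4 with all positions.

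The pair of clusters near the start of chromosome 1 differed from each other. From 829521 to 1158057, with 47 clustered peaks, the SP1_PB libraries had 15 and 16 insertions, against 4, 10 and 7, a ratio of 8.14 (4.68 to 14.2). Without positions found in more than 1 library, and with 0.5 added, it was 4.30. From 1195898 to 1570622, with 49, they had 9 and 5, against 9, 7 and 8, a ratio of 3.22 (1.66 to 6.22), the lowest of the 8. The cluster on chromosome 22 from 44682149 to 44925187 was close to it at 3.60 (1.96 to 6.64), and that on chromosome 7 from 1324693 to 1577072 stood at 8.73 (4.24 to 18.0).

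Of the 6 clusters with the most SP1_PB insertions, which were picked by that count, 1 was also among the 8 above. The sixth place was a tie at 31 between a cluster on chromosome 11 and the first one on chromosome 1 above, and it went to the shorter. The highest count, 36, was reached by a pair of clusters on chromosome 17. In the shorter one, from 73619530 to 73695256, the SP1_PB libraries had 17 and 19 and the WT_PB libraries 1 each. Only 5 of its 12 peaks met the rule, and 30 of the 36 lay within 1 stretch of 1 kb. Many of these were positions 1 bp apart. With 0.5 insertions added to each group its ratio was 57.5. It was 26.9 with positions within 3 bp merged and 10.2 with 1 insertion per 1 kb. The cluster on chromosome 3 from 50166668 to 50372167 also had many, with 17 and 18 against 3, 3 and 3, a ratio of 21.4 (10.3 to 44.6). There SP1_PB insertions lay at 10 of the 32 peaks, with at most 10 in 1 kb.

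The remaining leading clusters had more WT_PB insertions beside those of SP1_PB. In the other cluster with 36, on chromosome 17 from 76818630 to 77137196, the SP1_PB libraries had 20 and 16, against 14, 10 and 10, a ratio of 5.84 (3.65 to 9.33). On chromosome 16 from 3082303 to 3165714 they had 19 and 13, against 10, 18 and 3, a ratio of 5.69 (3.47 to 9.32). On chromosome 11 from 383610 to 638201 they had 18 and 13, against 4, 7 and 3, a ratio of 12.2 (6.49 to 22.9). Few of these were in gaps: 28 of the 31 were at most 1 kb from a peak.

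**Figure D5:**
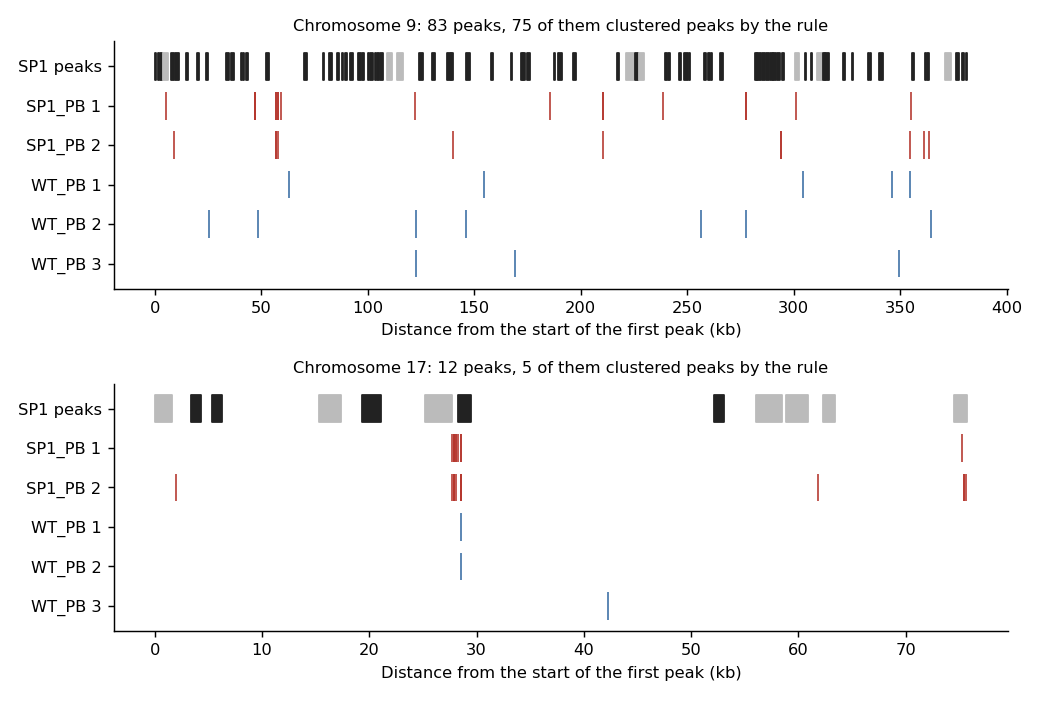
Positions of SP1 peaks (black where they meet the rule, grey otherwise) and of insertions in each library along the cluster with the most clustered peaks (chromosome 9, top) and the shorter of the clusters that tie for the most SP1_PB insertions (chromosome 17, bottom), in kb from the start of the first peak. On chromosome 9 at most 7 of the 29 SP1_PB insertions fall within 1 kb, and on chromosome 17 30 of 36 do.

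Chromosomes agreed in direction with 1 exception. Of 18 chromosomes with at least 50 clustered peaks, 17 had an odds ratio of clustered against other narrow peaks above 1 within 1 kb. On chromosome 17 it was 2.07, with 250 SP1_PB and 162 WT_PB insertions at clustered peaks, and on chromosome 16 it was 1.65, with 153 and 113. The highest was 7.34 on chromosome 21, which rested on 18 SP1_PB and 3 WT_PB insertions. Chromosome 6 was the exception at 0.939, with 15 and 22. Among chromosomes with fewer clustered peaks, chromosome 15 stood at 0.381 on 2 SP1_PB and 8 WT_PB insertions, and chromosome 13 had 0 and 2. Single chromosomes were not tested.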

How the data were processed

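Each deposited insertion list holds chromosomes, positions and counts of reads per insertion. The submitters' processing notes name hg18 and bowtie 0.12.7. The counts are raw as deposited; the sources used here do not give filters or strand. Chromosome codes 23 and 24 were read as X and Y. Lines at 1 position were merged, and each position counted as 1 insertion, because without molecular identifiers several PCR reads can stem from 1 molecule. Positions 1 bp apart thus counted as separate insertions. Merging positions within 3 bp removed 16.0% and 19.2% of the SP1_PB positions within 1 kb of clustered peaks. In the WT_PB libraries it removed 3.62%, 6.30% and 9.23%. The ratio of shares inside clustered peaks was then 16.1. The SP1_PB libraries held 904125 and 1004964 reads and the WT_PB libraries 1030567 to 2439456. Peaks and their score were deposited by the authors as MACS output, per the readme; the sources used here do not give the scale of the score, the control or the threshold. The deposited expression table was not used.

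Each insertion was given to the nearest peak edge. Starts of peaks are 1-based, read from BED positions. Shares within a library have 95% Wilson intervals in the tables; ratios of pooled shares have log-normal and odds ratios Woolf 95% intervals. All intervals cover counting error only. The two-sided Fisher's exact test was run on pooled insertions, adjusted by Benjamini-Hochberg over 8 comparisons, over all peaks with at least 5 insertions, or over all 50 kb windows with at least 5. Past the test, a peak or window needed an adjusted p under 0.05 with the SP1_PB libraries on 1 side of the pooled WT_PB share, and a comparison of shares needed libraries of the 2 groups that did not overlap. The share of peaks hit at equal depth is its expected value when a library is reduced to 14467 insertions. The peak and window test was tested on simulated counts. Regions named are the 8 clusters with the most clustered peaks, the 6 with the most SP1_PB insertions (ties to the shorter) and the 10 clustered peaks with the smallest p, with a tie. Alternatives merged or thinned positions, set other distances and minimums, held score, width or chromosome level (Mantel-Haenszel) and left out each library. The rule, the lists and the tests were chosen with earlier results of these data known. Python 3.11.15, numpy 2.4.6, pandas 2.3.3 and scipy 1.17.1 were used.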

Additional observations from a re-analysis of the deposited data

How the results depend on the processing

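The 7 ratios and odds ratios that passed the test at clustered peaks and gaps kept their direction in every alternative run for them, and passed wherever the alternative gave a test. The odds ratio within 1 kb against other narrow peaks ranged from 1.83 to 2.54 and the ratio of shares inside clustered peaks from 13.8 to 22.4. The odds ratio of the strongest peak was 1.18 and not past the test. It passed Fisher's exact test, with groups that did not overlap, at 2 or more reads per position (1.32), within 2 kb (1.22) and with 7 or more neighbours (1.47). So it did without SP1_PB replicate 2 or WT_PB replicate 3 (exact permutation p from 0.1 to 0.333 in these 5). With 4 or more neighbours (1.16) it passed Fisher's exact test only, and the groups overlapped. Leaving out 1 library gave 1.12 to 1.25. The ratio of peaks hit at equal depth, 6.42, was 7.34 with positions within 3 bp merged, 7.87 without positions in more than 1 library, 7.92 with 1 insertion per 1 kb, 7.50 within 500 bp, 5.58 within 2 kb, 7.85 with 7 or more neighbours, 8.0 and 5.19 with radii of 10 and 50 kb, and 7.02 at peaks with scores at or above the median; leaving out 1 library gave 6.13 to 6.61. The 88 clustered peaks higher in SP1_PB became 53, 15 and 4 under the first 3 of these, 58 with at least 2 reads, 48 with 7 or more neighbours, 9 and 176 with radii of 10 and 50 kb, 145 and 15 with minimums of 3 and 10 insertions, and 26 to 78 without 1 library. The share higher over all tested peaks, 54.1%, ran from 7.79% (1 insertion per 1 kb) to 72.9% (minimum of 10 insertions). The 238 of 634 tested windows became 130 of 536 without positions in more than 1 library and 87 of 570 with 1 insertion per 1 kb. They became 150 with 7 or more neighbours, and from 92 of 489 to 222 of 502 without 1 library. The share over all windows is not given beside these counts. Fewer libraries, positions or peaks entered most of these counts by construction; other causes were not tested. Pairing libraries by replicate number (the replicate block, as the geometric mean of 2 pairs, with no test) gave ratios of 16.4 inside, 8.85 within 1 kb and 3.07 in gaps, and odds ratios of 1.71, 2.03, 2.31, 1.85 and 1.24 in the order above. The labels do not say that numbers mark a shared culture. With 14467 insertions in the smallest library, most single peaks and clusters hold too few insertions for a statement of their own.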

Other observations

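Positions at clustered peaks recurred in both SP1_PB libraries. Of the positions within 1 kb of a clustered peak, 237 were identical in both, which is 27.3% of those of SP1_PB replicate 1 and 36.1% of those of SP1_PB replicate 2. At other narrow peaks these shares were 22.6% and 29.3%. Pairs of WT_PB libraries had 17 to 21 identical positions at clustered peaks, 4.87% to 6.91% of a library, against 7.28% to 10.4% at other narrow peaks. Of the WT_PB positions at clustered peaks 8.46% to 12.5% also occurred in a given SP1_PB library. The difference between the peak sets was not tested.

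Insertions at clustered peaks were read about as deeply as those at other narrow peaks. The median was 8 and 21 reads per position in the SP1_PB libraries, against 8 and 18 at other narrow peaks. In the WT_PB libraries it was 5, 6 and 6, against 5, 7 and 5.

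Some crowded clusters carried nothing. Among the 32 clusters without an insertion in any library, the one with the most clustered peaks lies on chromosome 9 from 137745581 to 137835563, with 18 peaks. Another, on chromosome 11 from 995954 to 1032013, has 10 peaks, all of them clustered peaks by the rule. Both were singled out after their values were seen. Merging insertions within 1 kb of each other left 67.1% of the SP1_PB and 85.6% of the WT_PB insertions in clusters.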
